A study of Arabidopsis thaliana with 10 samples.

Results

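Transcripts of ult1-3 seedlings were compared with those of wild type (WT) seedlings hybridised on the same slides, which set 4 of the 10 arrays of the series against each other. The ult1-3 seedlings, which carry a mutant allele of ULTRAPETALA1 (ULT1), had 1 array at 7 days and 1 array at 15 days of age. WT replicate 2 had 1 array at each of these ages, on the slide of the ult1-3 array of that age. All plants grew on sucrose-containing agar in short days, and total RNA of whole seedlings was labelled with a single dye. A further 2 arrays of the same slides held LFYasEMF1/ult1-3, the double mutant, in which ult1-3 is combined with LFYasEMF1, where the LEAFY (LFY) promoter drives EMF1 in antisense orientation. The double mutant enters here for the estimate of spread. WT replicate 1 lay on another slide and is shown beside the results as a second WT level. LFYasEMF1 without ult1-3 had 1 array at 7 days and 1 array at 15 days on that slide. Its levels are given for some genes, and it enters the alternative fits to all 10 arrays. How many seedlings made up a sample, the parental accession of WT and the kind of lesion in ult1-3 are not given in the sources used here. With 1 array per genotype and age, p-values measure only how these few arrays vary, and that variation may be technical.

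ULT1 encodes a SAND-domain protein counted with the trithorax group, the chromatin factors that keep genes active against silencing by the Polycomb group. In the Arabidopsis flower it is known to limit the number of stem cells of the floral meristem and to promote timely expression of AGAMOUS (AG), the gene for stamen and carpel identity that ends stem cell activity. In shoot and floral meristems, stem cells express CLAVATA3 (CLV3), a small secreted peptide that restrains the stem cell promoting gene WUSCHEL (WUS). The title of the series names the restoration of the LFYasEMF1 phenotype by ult1-3, and the comparison with WT asks what the allele alone does in seedlings.

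On the 4 arrays, the scanner software flagged 71.7% to 80.1% of spots as well above background, and the 75th percentile of the signal ran from 3847 to 5547. Values below are log2 of a spot's signal over that percentile of its array. A gene was tested when its probe was well above background on at least 2 of the 4 arrays, which left 20720 genes. WT replicate 1 stood apart from these arrays. The median of the morning genes minus that of the evening genes of the circadian clock was 3.70 and 3.06 in ult1-3 at 7 and 15 days, 3.82 and 3.23 in WT replicate 2, and −3.43 and −1.48 in WT replicate 1. The median size of the log2 difference of ult1-3 from WT replicate 2 was 0.28 (7 days) and 0.38 (15 days), against 0.57 and 0.54 between the WT replicates. Within both slides ult1-3 lay at array position 3 and WT at position 1, so position on the slide and genotype cannot be told apart.

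ULT1 (AT4G28190) itself was examined first. Its scaled signal was −2.33 and −2.76 in ult1-3 at 7 and 15 days, against −0.20 and −0.16 in WT of the same slides and −0.95 and −0.65 in WT replicate 1. Neither ult1-3 array reached the lowest of the 4 WT arrays. The mean log2 difference from WT of the same slides, 2 arrays against 2, was −2.37 ± 0.30, a 5.15-fold lower level. Each SE after ± here and below comes from the limma fit to 6 arrays, which include the double mutant. Its spread is the change of genotype differences between ages, shrunk toward that of all genes. The ULT1 difference missed the threshold in limma (adjusted p = 0.218, and 3.82e-05 to 0.934 under the alternatives). A second ULT1 probe gave −2.46 and −3.02 in ult1-3 and −0.39 and −0.24 in WT. Of the double mutant arrays, −6.45 at 7 days and −5.81 at 15 days were lower still. Where the probes lie relative to the lesion is not given, so the signal left in ult1-3 does not tell how much functional transcript is made. The 4 tested genes on each side of ULT1 had mean log2 differences between −0.46 and 0.62.

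The other genes named by the design had smaller differences. EMF1, a Polycomb-associated repressor of flower genes in seedlings, had a mean log2 difference of −0.59 ± 0.29 (adjusted p = 0.434 by limma). AG was at −5.22 and −4.51 in ult1-3 and −4.97 and −4.36 in WT by its brighter probe, a difference of −0.20 ± 0.27 (adjusted p = 0.746 by limma). Its other probe was at −8.78 and −7.99 in ult1-3, where neither array was well above background, against −6.81 and −6.23 in WT. The AG probes thus gave differences of unlike size. ULT2, the paralogue of ULT1, and LFY were well above background on 1 of the 4 arrays each and were not tested.

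In the test over both ages, 9 genes rose in ult1-3 seedlings and 3 fell (limma on the 6 arrays of the 2 slides, with genotype and age as terms, adjusted p under 0.05). These counts make 0.0434% and 0.0145% of the genes tested, and 2605 genes had an unadjusted p under 0.05. The spread comes from 2 residual degrees of freedom. For all 12 genes the 2 ult1-3 arrays did not overlap the 2 WT arrays of the same slides. The genes were called on these same arrays and the share over all genes was not counted, so this is no support. Of the 12 genes, 7 passed the filter on dim probes only through the genotype in which they were high, so their p-values are no support for the difference. When all 4 arrays had to be well above background, 4 genes were called, AT2G45135, AT5G60610, MRD1 and AT3G01345. Leaving out either WT array ended every call in limma, with adjusted p from 0.179 (AT2G25330) to 0.351 (AT3G01345) and 1 residual degree of freedom, while the sizes changed little. Without WT at 15 days and without WT at 7 days, AT2G25330 had differences of 5.88 and 6.06, AT2G45135 of 5.71 and 5.55, and MRD1 of −5.17 and −5.45. Only MRD1 and ARI3 among the 12 have a gene symbol in the annotation, and no role is given here for the others.

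**Figure D1:**
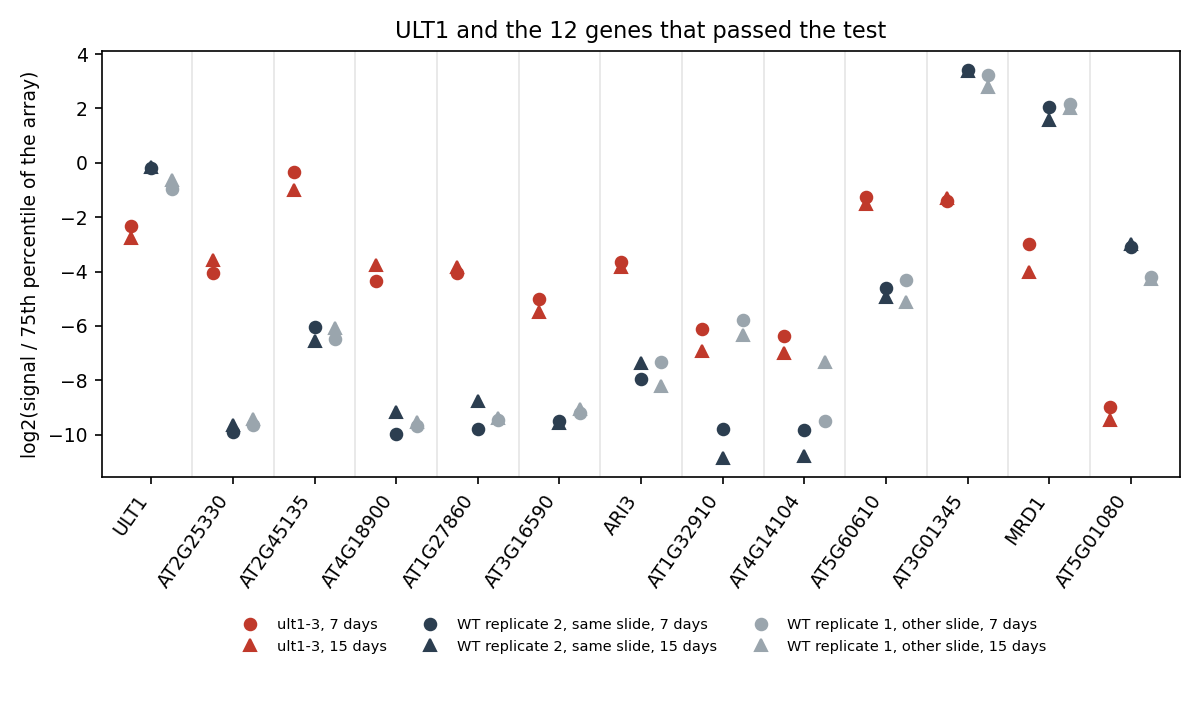
Scaled signal (log2 of signal over the 75th percentile of the array, vertical axis) of ULT1 and of the 12 genes that passed the limma test, 1 point per array, circles for 7 days and triangles for 15 days. In each column ult1-3 is on the left, WT of the same slide in the middle and WT replicate 1 on the right; for AT1G32910 the WT replicate 1 points (−5.79 and −6.35) lie beside the ult1-3 points (−6.11 and −6.91).

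Of the genes that rose, 6 were well above background on both ult1-3 arrays and on neither WT array of the same slides. AT2G25330 was at −4.05 and −3.56 in ult1-3 at 7 and 15 days and at −9.91 and −9.64 in WT, at least 20.5-fold higher. AT1G27860 was at −4.05 and −3.83 in ult1-3 and at −9.79 and −8.78 in WT, at least 18.7-fold higher. AT4G18900 was at −4.35 and −3.78 in ult1-3 and at −9.97 and −9.15 in WT, at least 17.2-fold higher. Each of these 3 genes was at or below −9.39 in WT replicate 1 too. AT3G16590 was at −5.00 and −5.49 in ult1-3 and at −9.48 and −9.56 in WT, at least 7.55-fold higher. The remaining pair was less secure. AT1G32910 rose at least 3.14-fold (−6.11 and −6.91 in ult1-3, −9.79 and −10.85 in WT), but WT replicate 1 was at −5.79 and −6.35, as high as ult1-3. AT4G14104 rose at least 2.80-fold (−6.37 and −6.98 in ult1-3, −9.83 and −10.79 in WT), and WT replicate 1 at 15 days was at −7.32. The adjusted p-values of these 6 genes ran from 0.00548 to 0.0208 by limma. They are no support for the difference, because the genes entered the test through the ult1-3 arrays alone. With normexp background correction their differences were smaller, 2.38 for AT2G25330, 2.27 for AT1G27860, 2.12 for AT4G18900, 1.26 for AT3G16590, 0.88 for AT4G14104 and 0.71 for AT1G32910.

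The other 3 genes that rose had signal in WT. AT2G45135 was at −0.34 and −0.99 in ult1-3 and at −6.05 and −6.54 in WT, 49.5-fold higher (log2 difference 5.63 ± 0.20, adjusted p = 0.00548 by limma). AT5G60610 was at −1.26 and −1.50 in ult1-3 and at −4.59 and −4.93 in WT, 10.4-fold higher (3.38 ± 0.20, adjusted p = 0.0175 by limma). ARI3 (AT3G27710), of the ARIADNE family of RING-type ubiquitin ligases, was at −3.63 and −3.82 in ult1-3 and at −7.96 and −7.38 in WT, 15.3-fold higher (3.94 ± 0.26, adjusted p = 0.0243 by limma). On 1 of the WT arrays the ARI3 probe was not well above background, which bears on its fold, and normexp correction gave ARI3 a difference of 2.06. WT replicate 1 was within the range of −7.31 to −8.19 for ARI3 and of −4.31 to −5.12 for AT5G60610. Of the 16 ARIADNE genes listed, 7 were tested. ARI3 alone of these passed in limma on 6 arrays, and the other 6 had differences between −0.56 and 0.40 at the 2 ages.

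Among the 3 genes that fell, MRD1 (AT1G53480), named for its low transcript in the methionine over-accumulating mutant mto1, was at −2.99 and −4.02 in ult1-3 at 7 and 15 days and at 2.05 and 1.56 in WT. It was thus 39.7-fold lower (−5.31 ± 0.24, adjusted p = 0.00781 by limma), and WT replicate 1 was at 2.16 and 2.02. MRD1 was a bright gene in all 4 WT arrays. AT3G01345 was at −1.39 and −1.30 in ult1-3 and at 3.41 and 3.38 in WT, 26.7-fold lower (−4.74 ± 0.27, adjusted p = 0.0175 by limma), and its second probe gave −7.60. Both of its probes were far above background in WT. AT5G01080 was at −8.99 and −9.46 in ult1-3 and at −3.08 and −2.99 in WT, at least 15.0-fold lower, and it entered the test through the WT arrays alone. Its other probes gave differences of 0.22 and 1.33 and were dim, so the probes of AT5G01080 disagree.

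WT replicate 1 and the double mutant give further levels of these genes. Of the 12 genes, 10 also differed from WT replicate 1 by over 2-fold in the direction of the call at both ages. AT1G32910 and AT4G14104 did not, with differences from WT replicate 1 of −0.32 and −0.56 and of 3.14 and 0.34. The double mutant carries the same allele and is compared with the same WT arrays. In it ARI3 was at −3.66 and −3.57, AT2G45135 at 0.19 and −0.47, AT5G60610 at −1.01 and −1.27, and MRD1 at −3.96 and −4.46. These levels lay far from those of WT, as in ult1-3. AT1G32910 was at −8.86 and −9.34 and AT4G14104 at −8.87 and −9.30 in the double mutant, below the lowest signals well above background on these arrays (−6.80 and −7.16), so they have no direction there. Some of the 12 genes also stood apart from WT in LFYasEMF1, a line without the ult1-3 allele that was hybridised beside WT replicate 1. AT5G01080 was at −9.34 and −9.86 in LFYasEMF1 and at −4.21 and −4.28 in WT replicate 1. AT3G01345 was at −8.87 and −7.07 in LFYasEMF1, lower than in ult1-3, and at 3.25 and 2.78 in WT replicate 1. AT2G45135 was at −2.24 and −3.31 in LFYasEMF1 and at −6.46 and −6.07 in WT replicate 1, and AT1G27860 at −6.27 and −6.40 in LFYasEMF1 and at −9.47 and −9.39 in WT replicate 1.

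The number of genes called turned on the arrays used for the spread. With the 4 arrays of ult1-3 and WT alone, 418 genes rose and 1023 fell (limma, adjusted p under 0.05), or 2.02% and 4.94% of the genes tested. All 12 genes above were among them. That fit has 1 residual degree of freedom, and the prior shared by all genes carries 16.2 degrees of freedom, against 3.3 in the fit with 6 arrays. Calls from it are named below as those of the 4-array fit. Without the age term in this 4-array fit, so that age counts as spread, 0 genes remained (limma, 577 at an unadjusted p under 0.05).

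At each age the comparison has 1 array against 1, so differences at an age are values without a test. At 7 days 551 genes were over 2-fold higher and 1226 over 2-fold lower in ult1-3, and at 15 days 579 and 856. Of these, 137 were over 2-fold higher at both ages and 350 over 2-fold lower at both ages, or 0.661% and 1.69% of the genes tested, and 50 went in opposite directions. Across the 20720 genes the differences at the 2 ages had a Pearson correlation of 0.45 and a Spearman correlation of 0.46, a description over genes that share arrays, depth and slide layout. Of the 137 and 350 genes, 44 and 43 were also over 2-fold apart from WT replicate 1 in the same direction at both ages. Signal limited many of these differences. Of the 137 higher genes 91 were well above background on all 4 arrays, and of the 350 lower genes 227.

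**Figure D2:**
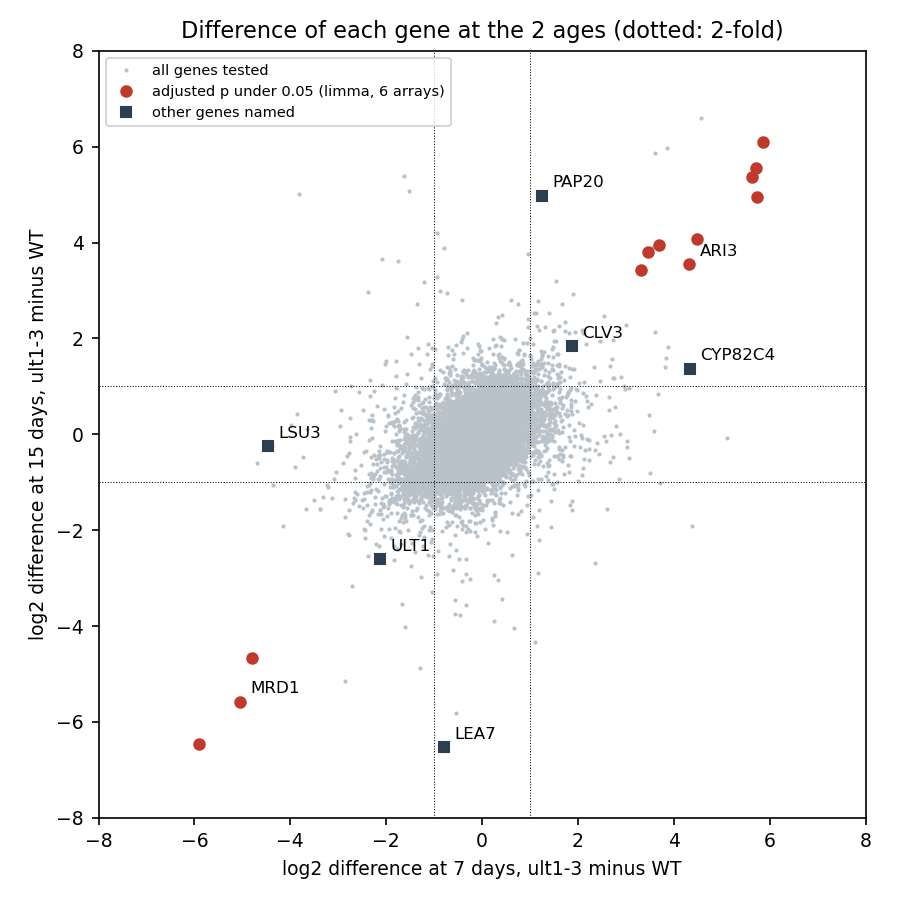
Log2 difference of each of the 20720 genes tested between ult1-3 and WT of the same slide, at 7 days (horizontal axis) and at 15 days (vertical axis), with 2-fold marked by dotted lines. The 12 genes that passed the limma test lie near the diagonal and well beyond 2-fold, CLV3 and ULT1 lie nearer the centre, and LSU3 and LEA7 lie near an axis, with a large difference at 1 age.

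The direction of small differences depended on the brightness of the gene. With the genes split by mean signal into 5 bins of 4144, the median difference was −0.20 at 7 days and −0.21 at 15 days in the dimmest bin, and in the brightest bin it was 0.12 and 0.29. Genes over 2-fold at both ages numbered 90 higher and 210 lower in the dimmest bin and 10 higher and 5 lower in the brightest. Under quantile normalization the genes over 2-fold at both ages were 166 higher and 253 lower, so that 39.6% were higher, against 28.1% with the 75th percentile. Division by the median of each array gave 209 and 220 genes, or 48.7% higher, and moved the median of all genes to 0.12 and 0.087 at 7 and 15 days, against −0.034 at both ages with the 75th percentile.

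**Figure D3:**
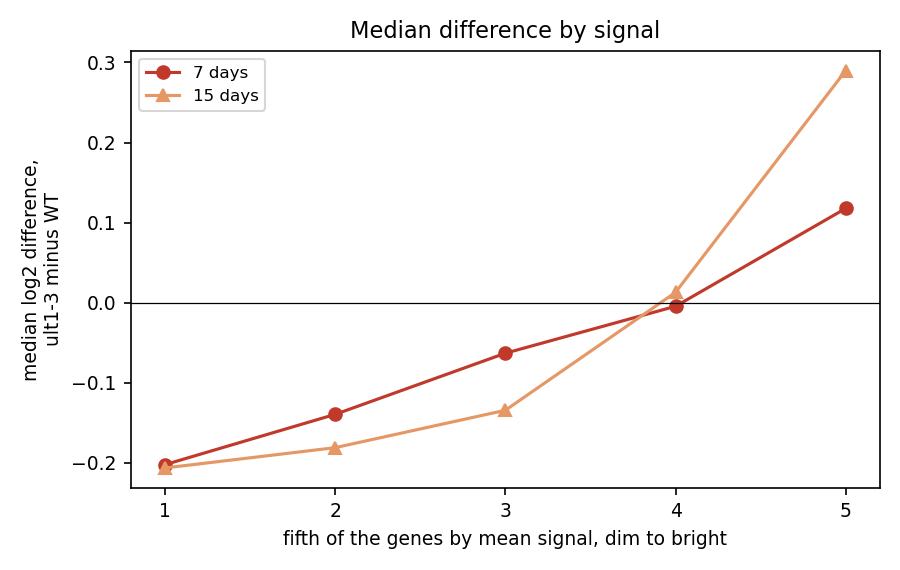
Median log2 difference between ult1-3 and WT of the same slide (vertical axis) in 5 bins of the 20720 genes ordered by mean signal from dim to bright (horizontal axis), at 7 days (circles) and 15 days (triangles). Medians run from −0.20 and −0.21 in the dimmest bin to 0.12 and 0.29 in the brightest.

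Among the genes with symbols, CLV3, YUC7 and LBD26 were higher in ult1-3 by a like margin at both ages. They were chosen for large differences in the same direction on these arrays, so their p-values below are no support for a difference. CLV3 (AT2G27250) was at −5.59 and −6.34 in ult1-3 at 7 and 15 days, against −7.46 and −8.18 in WT and −7.22 and −7.47 in WT replicate 1. Both ult1-3 arrays thus lay above all 4 WT arrays, with differences of 1.87 and 1.85 from WT of the same slides. In that WT, CLV3 was near the lowest signals well above background on these arrays (−7.74 and −8.59). In WT replicate 1 it was well above background on 1 array only. The mean difference was 1.86 ± 0.20, or 3.62-fold, and 0.60 with normexp background correction. It did not pass in the fit with 6 arrays (adjusted p = 0.172 by limma) and passed in the 4-array fit (adjusted p = 0.000295 by limma). The auxin synthesis gene YUC7 was at −4.65 and −5.95 in ult1-3 and at −6.21 and −7.39 in WT, and LBD26, of the LOB-domain transcription factors, was at −3.73 and −3.12 in ult1-3 and at −5.21 and −4.74 in WT. For both genes the ult1-3 arrays lay above all 4 WT arrays, by a narrow margin for YUC7 (−5.95 in the lower ult1-3 array and −6.21 in the highest WT array). YUC7 and LBD26 passed in the 4-array fit (adjusted p = 0.00159 and 0.00122 by limma) and not in the fit with 6 arrays (adjusted p = 0.24 and 0.219 by limma), and normexp correction gave YUC7 a difference of 0.77. In the double mutant CLV3 was at −5.61 and −6.56, near its level in ult1-3. YUC7 was at −5.88 and −7.60 and LBD26 at −4.99 and −4.71 in the double mutant, near the WT levels.

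The other genes of this group had differences that were less even between ages or that were not seen against WT replicate 1. NRPE3B, a subunit gene of the nuclear RNA polymerases, had differences of 1.73 and 2.35, and M10 of 1.74 and 2.15. The receptor kinase gene RK3 had 1.49 and 2.18. CDG1, a receptor-like cytoplasmic kinase, was well above background on neither WT array and was at least 3.54-fold higher. The transporter gene ABCG39 had 3.6 and 2.14 by its brighter probe and −1.47 and −1.33 by the other, so its probes disagree. The cytochrome P450 gene CYP82C4 had 4.33 and 1.37, and the purple acid phosphatase gene PAP20 1.25 and 4.98. WRKY40, a transcription factor gene of defence, had 1.82 and 1.38, but WT replicate 1 at 15 days was at 1.36, above both ult1-3 arrays (0.0037 and −2.07), and against all 4 WT arrays WRKY40 had 0.024. In the double mutant the difference from WT was not kept by every gene, with −0.91 and 0.84 for RK3 and 2.89 and −1.7 for CYP82C4. Under normexp correction the 8 genes had differences between 0.84 (CDG1) and 1.99 (CYP82C4). In the 4-array fit these 8 genes passed, and in the fit with 6 arrays none of them did (adjusted p from 0.172 to 0.382 by limma). Passing the 4-array fit is no support, since the genes were chosen for large differences at both ages of the same arrays.

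Among genes with a symbol, those lower by the largest margin at both ages, beside MRD1 and ULT1, were 10 genes of unlike roles. These 10 genes were chosen by their differences on these arrays, so their p-values are no support for a difference. APL2, a large subunit of the starch synthesis enzyme ADP-glucose pyrophosphorylase, was at −4.02 and −2.96 in ult1-3, against −1.21 and −0.88 in WT and −0.55 and −0.68 in WT replicate 1. Each ult1-3 array was below every WT array, with a mean difference of −2.44 ± 0.25 (adjusted p = 0.152 by limma; 3.82e-05 in the 4-array fit). UNE15 was at −5.37 and −3.58 in ult1-3 and at −3.22 and −1.24 in WT, a mean difference of −2.25 ± 0.20 (adjusted p = 0.105 by limma). At each age UNE15 was lower in ult1-3 than in either WT array of that age. BAG6, a co-chaperone gene, had differences of −2.34 and −1.87, and the beta-amylase gene BAM6 of −2.40 and −1.82. BAM6 was at −7.59 and −4.69 in ult1-3 and at −9.33 and −5.33 in WT replicate 1, so it was higher in ult1-3 than in that WT, and against all 4 WT arrays it had −0.46. The MADS-box gene AGL14 had −2.2 and −2.29, and the wax ester synthase gene WSD1 −2.38 and −2.53. CYP708A2 of thalianol synthesis had −2.46 and −1.98. The beta-glucosidase gene BGLU41 was at least 1.30-fold lower, and RL1, a RADIALIS-like gene, was well above background in WT only and has no fold. In the double mutant the differences from WT of the same slides were −2.79 and −2.30 for APL2, −0.46 and −0.67 for UNE15, and −0.47 and −1.96 for AGL14. Normexp correction gave the 10 genes differences between −2.06 (APL2) and −0.43 (BGLU41).

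HEI10, a ubiquitin ligase gene of meiotic crossing-over and the direct neighbour of MRD1, had −1.82 and −1.95 by its brighter probe, and its other probe gave −5.05. Neighbouring protein-coding genes were both over 2-fold in the same direction at both ages in 7 runs with 16 genes. Besides MRD1 with HEI10 these included the topoisomerase genes TOP1ALPHA (−1.28 and −1.13) and TOP1BETA (−1.04 and −1.01), and DUF5 (−1.92 and −1.38) with DUF6 (−1.23 and −1.04). The 4 adjacent genes from AT5G37990 to AT5G38020 had differences between −4.16 and −1.24, and AT1G04660 with AT1G04670 was the 1 run that was higher. CYP705A5 (−1.42 and −1.41) and CYP708A2 lie side by side in the thalianol cluster, whose cyclase gene THAS1 had −0.94 and −1.66, while AT5G47980 next to CYP705A5 had −0.05 and −0.27. CYP705A5 and CYP708A2 were lower in WT replicate 1 at 15 days (−3.69 and −6.31) than in ult1-3 (−2.73 and −6.22).

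Genes of known function were grouped in 28 lists. Over all genes tested, 30.8% were higher at both ages and 36.2% lower at both ages, with medians of −0.034 at each age, and the members of a list are read against these. A single list, that of the ARIADNE ligases, held a gene that passed in the fit with 6 arrays.

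Genes of the Polycomb and trithorax group were mostly lower in ult1-3 than in WT of the same slides. Of 24 tested, 18 were lower and 2 higher at both ages, with medians of −0.36 and −0.60, and 15 to 18 were lower under the other scalings. The mutated gene ULT1 itself is among the 18. The Polycomb RING-finger gene RING1A was at −4.61 and −3.63 in ult1-3 and −3.79 and −2.74 in WT. RING1A and ULT1 fell in the 4-array fit, as did 4.94% of all genes tested. No member passed in the fit with 6 arrays (adjusted p = 0.301 for RING1A by limma). Against WT replicate 1, however, 3 of the 24 were lower and 11 higher at both ages, with medians of 0.16 and 0.039. The list of DNA methylation and silencing had a like pattern. Of 16 tested genes, 10 were lower and 1 higher at both ages (medians −0.33 and −0.36), and 4 were lower and 5 higher against WT replicate 1. IBM1, a histone demethylase gene that protects genes from silencing, had −1.01 and −1.03. For IBM1, WT replicate 1 was at −3.68 and −2.84, below ult1-3 at each age (−2.94 and −2.21). The demethylase genes DME and ROS1 (DML1) had −1.16 and −0.85, and −1.20 and −0.94. IBM1, DME and ROS1 fell in the 4-array fit, as did 4.94% of all genes tested.

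Flowering time genes went both ways. Of 30 tested, 18 were lower and 6 higher at both ages, with medians of −0.52 and −0.11, and the median at 15 days was 0.011 under division by the median. FLC, the MADS-box repressor of flowering, was at −0.33 and −0.41 in ult1-3, against −1.02 and −2.39 in WT and −1.09 and −0.96 in WT replicate 1. Both ult1-3 arrays lay above all 4 WT arrays. The mean difference of FLC was 1.33 ± 0.54, which passed in the 4-array fit (adjusted p = 0.0104 by limma) and not with 6 arrays (adjusted p = 0.402 by limma). FLC was named after the 4-array fit was seen, so its p-value there is no support for a difference. SOC1 (AGL20), an integrator gene that promotes flowering, was at −2.46 and −1.80 in ult1-3 and at −1.59 and −0.31 in WT. SPL3, SPL5 and SPL9, which promote the change to the adult and flowering phase, had differences of −1.41 and −1.07, −2.85 and −1.73, and −1.49 and −0.69. LD, a gene of the autonomous pathway, had −1.13 and −1.14. SOC1, LD and the 3 SPL genes fell in the 4-array fit, and FLC was the 1 member that rose. Of all genes tested, 4.94% fell and 2.02% rose in that fit. For LD, WT replicate 1 was at −3.40 and −2.18, below ult1-3 at each age (−3.06 and −1.88). For SPL3 it was at −5.25 and −1.55, beside ult1-3 at −5.09 and −2.42. SPL5 was at −8.59 and −5.56 in ult1-3, well above background on 1 array, and at −7.43 and −5.68 in WT replicate 1.

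Floral organ identity genes gave 12 tested genes, of which 7 were lower and 2 higher at both ages (medians −0.61 and −0.25). SEP3, a cofactor of the floral MADS-box proteins, was at −3.78 and −3.42 in ult1-3, against −1.54 and −2.58 in WT. WT replicate 1 was at −2.13 and −1.17, so all 4 WT arrays lay above both ult1-3 arrays. The mean difference of SEP3 was −1.54 ± 0.68 (adjusted p = 0.413 by limma; 0.0051 in the 4-array fit). The carpel gene SHP2 was at −6.60 and −6.56 in ult1-3 and at −5.58 and −5.85 in WT (adjusted p = 0.53 by limma; 0.0467 in the 4-array fit). SEP3 and SHP2 were named after the 4-array fit was seen, so its p-values are no support for a difference. These 2 of the 12 tested genes fell in that fit, as did 4.94% of all genes tested. PI, a gene for petals and stamens, was at −4.10 and −1.68 in ult1-3 and at −4.11 and −3.13 in WT, level at 7 days and higher at 15 days by a value without a test.

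Genes of the shoot meristem went both ways. Of 21 tested, 6 were higher and 5 lower at both ages, with medians of −0.22 and 0.12. STM, which maintains the meristem, had differences of 0.19 and 0.25, KNAT1 −0.39 and −0.14, and the CLV3 receptor gene CLV1 0.19 and −0.090. The homeobox gene BLH8 had −0.73 and −0.97, and the cytokinin response regulator gene ARR7 −0.95 and 0.26. CLV3 was the member over 2-fold at both ages, and it was also the 1 member that passed in the 4-array fit. In that fit 2.02% of all genes tested rose. WUS was well above background on 1 of the 4 arrays and was not tested.

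Genes of iron and copper supply were mostly higher in ult1-3. Of 23 tested, 14 were higher and 6 lower at both ages (medians 0.14 and 0.64), and in the 4-array fit 8 rose and 1 fell, against 2.02% and 4.94% of all genes. The iron transporter gene IRT1 was at −0.40 and 1.22 in ult1-3, against −3.37 and 0.28 in WT and −2.65 and −2.03 in WT replicate 1. The ferric reductase gene FRO2 was at −1.02 and 0.57 in ult1-3, against −2.96 and −0.13 in WT and −3.27 and −2.69 in WT replicate 1. At each age IRT1 and FRO2 were higher in ult1-3 than in either WT array, but the 2 genotypes overlapped across ages. The regulator bHLH38 was at −1.93 and 1.65 in ult1-3 and at −3.06 and −0.88 in WT, and its relatives bHLH39, BHLH100 and BHLH101 had differences of 0.77 and 1.76, 0.77 and 1.75, and 0.86 and 1.90. NAS2, an enzyme of nicotianamine synthesis, had 1.33 and 0.63, and MYB72 was well above background on 1 array of each genotype. YSL1, a metal-nicotianamine transporter gene, had −0.69 and −1.46 and was the member that fell. None passed in the fit with 6 arrays (adjusted p = 0.35 for IRT1, 0.378 for FRO2 and 0.405 for bHLH38 by limma). The WT arrays varied among themselves by as much, with bHLH38 at −4.86 and −5.11 in WT replicate 1.

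**Figure D4:**
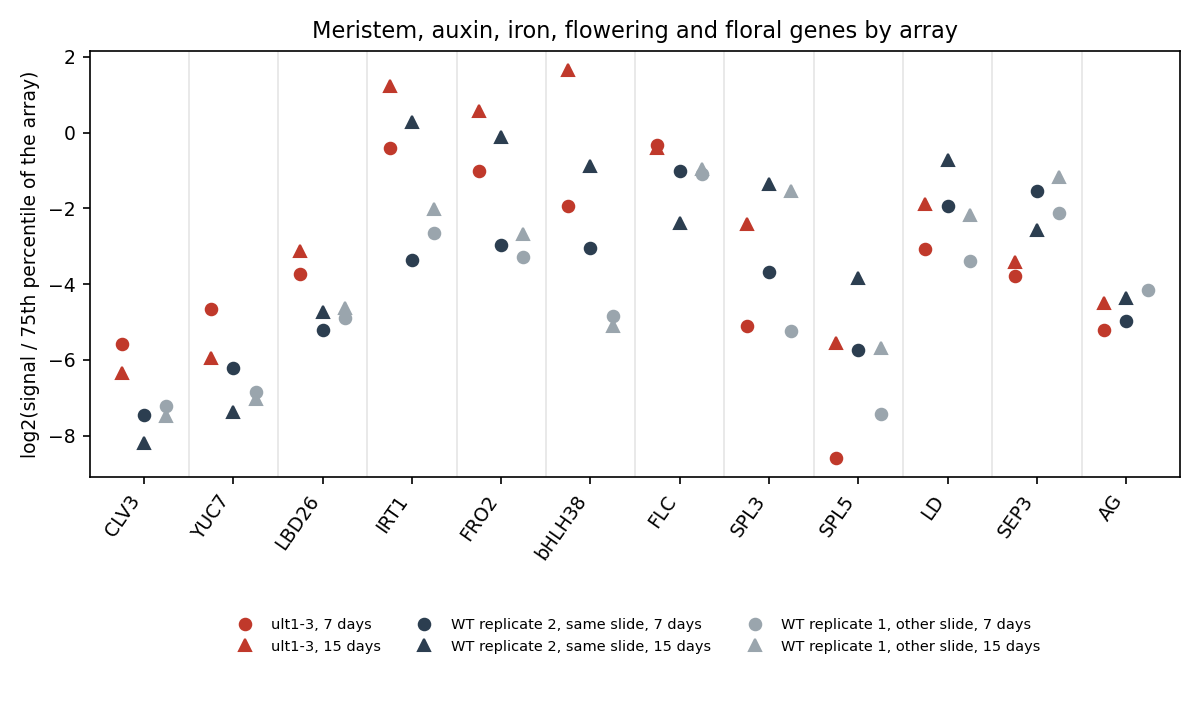
Scaled signal (log2 of signal over the 75th percentile of the array, vertical axis) of 12 genes of meristem, auxin, iron, flowering and floral lists, 1 point per array, circles for 7 days and triangles for 15 days; ult1-3 on the left, WT of the same slide in the middle, WT replicate 1 on the right. For CLV3, YUC7, LBD26 and FLC both ult1-3 points lie above all WT points, and for SEP3 both lie below them; AG has 1 WT replicate 1 point, at 7 days.

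The 23 photosynthesis genes were all higher at both ages, by medians of 0.22 and 0.32, but none passed and the direction was lost under quantile normalization (7 higher and 5 lower, medians 0.014 and −0.0039) and with the authors' value table and normexp correction. It was kept by all 23 under division by the median (medians 0.37 and 0.44) and with the floor under dim signals. Against WT replicate 1, 8 were higher and 8 lower at both ages. In the brightest bin of all genes the medians were 0.12 and 0.29. Defence genes of the salicylic acid pathway were 6 higher and 6 lower of 18, with the regulator SARD1 at −4.74 and −4.29 in ult1-3 and −5.77 and −5.71 in WT. SARD1 was at −2.12 and −2.01 in WT replicate 1, so its place relative to WT depended on the WT array. Among 22 glucosinolate genes 10 were lower and 2 higher at both ages. Against WT replicate 1, however, 1 was lower and 7 higher at both ages. Under division by the median 8 were lower and 7 higher. The myrosinase gene TGG2 was at −3.64 and −0.29 in ult1-3, −0.44 and 0.81 in WT and −2.29 and −1.25 in WT replicate 1. Morning clock genes were lower in 7 of 10 (medians −0.64 and −0.43), and evening clock genes in 4 of 10 (−0.24 and −0.13).

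**Figure D5:**
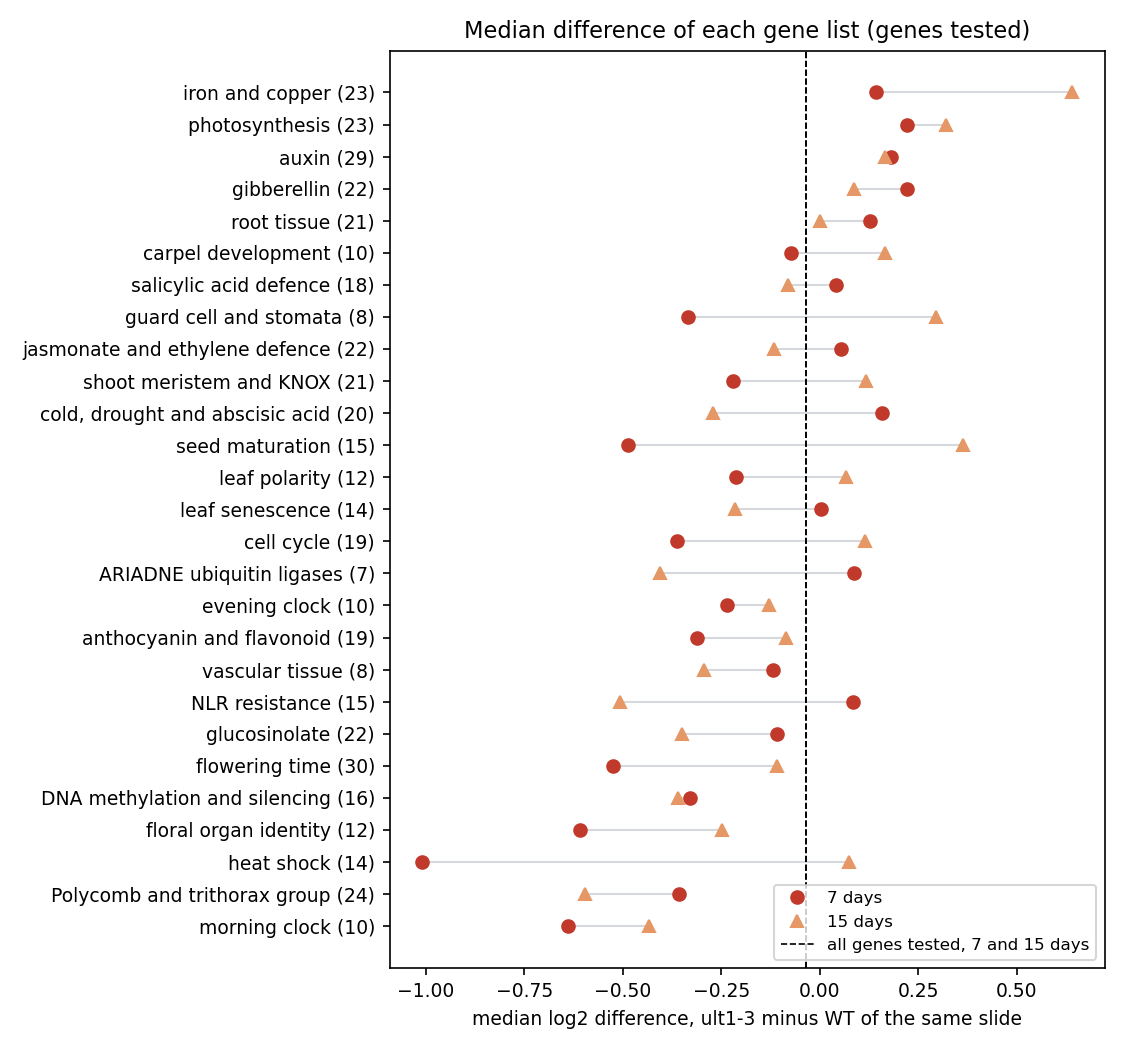
Median log2 difference between ult1-3 and WT of the same slide (horizontal axis) for the 27 lists with a gene tested (vertical axis, number of genes tested in parentheses), at 7 days (circles) and 15 days (triangles), with the medians of all genes tested as dashed lines. The list of iron and copper genes lies highest at 15 days (0.64), and the heat shock list lies lowest at 7 days (−1.01) with 0.075 at 15 days.

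In the remaining lists at most 2 members per direction passed in the 4-array fit, where 2.02% of all genes tested rose and 4.94% fell. Auxin genes were 10 higher and 7 lower at both ages of 29, gibberellin genes 10 and 3 of 22, and cell cycle genes 2 and 5 of 19. Heat shock genes were 1 higher and 6 lower of 14, and seed maturation genes 1 and 5 of 15, with medians of −0.49 (7 days) and 0.36 (15 days). Cold, drought and abscisic acid genes were 3 and 7 of 20, jasmonate and ethylene defence genes 6 and 4 of 22, and NLR resistance genes 0 and 6 of 15. Anthocyanin and flavonoid genes were 6 and 10 of 19, leaf senescence genes 4 and 5 of 14, leaf polarity genes 3 and 6 of 12, and carpel genes 3 and 2 of 10. In the tissue lists, root genes were 9 and 7 of 21, guard cell genes 1 and 2 of 8, and vascular genes 0 and 6 of 8. Vascular genes were 0 and 3 under quantile normalization and 1 and 2 under division by the median. Some directions changed against WT replicate 1, with heat shock genes at 11 and 2 and anthocyanin and flavonoid genes at 12 and 4. Vascular genes were 1 and 5 against it. None of the 10 genes of stamen and pollen passed the filter on dim probes.

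Some genes had a large difference from WT at 1 age only. LSU3, a gene of the response to low sulphur, was at −5.33 and −5.25 in ult1-3, −0.86 and −5.00 in WT of the same slides and −5.77 and −4.85 in WT replicate 1. Its relative LSU2 was at −1.38 and −1.17 in ult1-3, 3.00 and −0.93 in WT and −2.53 and −0.65 in WT replicate 1. Both genes were high on the array of WT replicate 2 at 7 days and on none of the other 5. LSU1 and ATSDI1, also sulphur-responsive and chosen after their values were seen, had differences of −2.30 and 0.30, and −3.73 and −0.48. At 15 days the late embryogenesis gene LEA7 was at −5.24 in ult1-3 and at 1.29 in WT, and the lipid transfer protein gene LTP3 at −1.69 in ult1-3 and at 2.2 in WT. In WT replicate 1 at 15 days LEA7 was at −4.14 and LTP3 at −2.11, so for both genes the array of WT replicate 2 stood apart. The sugar phosphate translocator gene GPT2 was at −4.29 in ult1-3 and −0.64 in WT at 7 days, and at −3.35 in ult1-3 and −3.46 in WT at 15 days.

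The seedling label was checked against markers of tissues. All 8 root markers, 4 green tissue markers, 4 guard cell markers and 6 vascular markers were well above background on the 4 arrays. Differences of the root markers between ult1-3 and WT of the same slide ran from −0.70 to 0.58, and of the green tissue markers from 0.025 to 0.53. Guard cell markers ran from −1.01 to 0.45, with the potassium channel gene KAT1 at −0.55 and −1.01. Vascular markers ran from −1.02 to 0.56, and the cellulose synthase genes of secondary walls, CESA4, CESA7 and CESA8, had −1.0, −1.02 and −0.94 at 15 days. The part of these tissues in the results was not tested. Of the flower markers AP3 was at background on all 4 arrays, and AG, PI and SEP3 were not. Stamen and pollen markers were at background throughout, as were the seed markers SESA1 and OLEO1. The other seed markers were not, with CRA1 well above background on 1 array of each genotype and EM6 on all 4 arrays. EM6 was at −4.34 and −6.16 in ult1-3 and at −4.18 and −4.72 in WT. In whole seedlings, fewer cells of a type and less RNA per cell cannot be told apart.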

How the data were processed

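Each array was read from the authors' deposited Agilent Feature Extraction 10.7.1.1 table (version per the submitters' processing notes). Per the file headers, its processed signal is a background-subtracted intensity on a linear scale, detrended within the array and not normalized between arrays. The authors' deposited value table, also an intensity, has column medians from 967 to 975, with scale and centring not stated, and served as an alternative. Of 45220 spots, 43803 were no controls and held 43603 probes; 34358 probes had a locus in a RefSeq table (TAIR10.1, names and gene order only) and 9245 had none. Outlier spots were left out (62 probes); none of the arrays had a saturated spot.

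Each signal was scaled by its array's 75th percentile over non-control spots and put on a log2 scale. The brightest probe stood for a gene. limma 3.58.1 in R 4.3.3 fitted genotype and age to the 6 arrays of slides 2 and 3, with Benjamini-Hochberg adjustment and a threshold of 0.05. The script was tested on simulated data. A gene dim on both arrays of a genotype has a lower bound as its fold, taken against the lowest signal that each array flagged as above background. Coordinates and sequences are not reported here. The alternatives were quantile scaling, the median, the authors' table, normexp on median signals (offset 50) followed by quantile normalization, 3 filters, a floor, the mean of probes, a variance trend, other sets of arrays, and each array left out; inclusion of probes without a locus, and the alternatives for the counts at each age, the lists and ULT1, were added after seeing the data.

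Genes named are ULT1, ULT2, EMF1, LFY and AG; those past the threshold; the 12 higher and 12 lower genes with a symbol and the largest smaller difference of both ages; list members over 2-fold at both ages, or well-known members; and the 5 genes a direction that differed most between ages. CYP705A5, THAS1, AT5G47980, LSU1, ATSDI1 and the neighbour pairs were chosen after their values were seen, as were the list members named from the 4-array fit. The members, lists and tests were chosen with earlier results of these data known. Of 530 list entries, 523 had a symbol that the reference table pairs with their locus and were kept.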

Additional observations from a re-analysis of the deposited data

Results flagged for a closer look

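Among the genes named for their difference between ages, 5 went in opposite directions at 7 and 15 days, each by more than the median absolute difference of all genes at that age (0.28 and 0.38). The stress-related transcription factor gene ERF53 differed by 3.51 at 7 days and −0.81 at 15 days (15 days minus 7 days, −4.32), and the U-box ubiquitin ligase gene PUB19 by 2.60 and −1.55 (−4.15). TSPO, a gene for a membrane protein induced by abscisic acid, differed by 1.16 and −2.89 (−4.05). The defensin-like gene LCR67 differed by −0.87 and 3.00 (3.87), and AT4G27360 by −2.72 and 1.01 (3.74). With 1 array per genotype and age, the difference between ages was not tested. In ult1-3 ERF53 was at −0.62 at 7 days and −5.75 at 15 days, against −4.12 and −4.94 in WT of the same slides and −1.05 and −3.87 in WT replicate 1. PUB19 was at −1.12 and −6.16 in ult1-3, against −3.71 and −4.60 in WT and −3.54 and −2.85 in WT replicate 1.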

How the results depend on the processing

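The count of 12 genes called by limma was 4 with a filter of all 4 arrays, 6 with no filter and 6 with normexp correction. It was 1441 with the 4 arrays alone, and 0 with these 4 arrays and no age term (577 at an unadjusted p under 0.05). It ranged from 0 to 1441 when 1 array was left out: 0 without either WT array (2334 and 2527 genes at an unadjusted p under 0.05), 8 and 14 without ult1-3 at 15 and at 7 days, and 1441 without either double mutant array. In the other settings it was 8 to 15, and with all arrays kept at least 8 of the 12 were among them. The 487 genes over 2-fold at both ages became 181 with normexp, 318 with the filter of 4 arrays and 2325 with no filter. The counts over 2-fold were 914 and 4822 at 7 days and 738 and 4130 at 15 days with normexp and with no filter. Lists with a median below 0 at both ages numbered 9 of 27, and 5 under division by the median. ULT1 stood at −2.37 and passed in the 4-array fit (adjusted p = 3.82e-05 by limma); without 1 array it ranged from −2.75 to −1.98. With all 4 WT arrays as controls, SARD1 stood at −0.61 and AT4G27360 at 1.2, opposite to the comparison within slides, and RL1 stood at 0.13 with a floor under dim signals. The means over ages also changed sign without 1 array for MYB72 (−0.14 to 2.42), PUB19 (−1.32 to 2.36), GPT2 (−4.11 to 0.57), LCR67 (−0.63 to 2.75), ERF53 (−1.0 to 3.69), TSPO (−2.96 to 1.24), AG (−0.42 to 0.020), AT4G27360 (−2.91 to 1.2) and LTP3 (−3.81 to 0.16). The cause was not tested. The comparison is paired by age and slide through the age term. By replicate number, no paired analysis was possible because ult1-3 shares none with WT in the labels. Normexp correction lowered the differences of dim genes. The number of arrays limits every value, and folds of dim genes depend on background.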
